A study of Hyacinthus orientalis with 189 samples.

Results

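Chalcone isomerase (CHI) and flavanone 3-hydroxylase (F3H) are the consecutive enzymes between chalcones and dihydroflavonols in the flavonoid pathway of the hyacinth perianth. Their unigenes, the assembled transcripts taken as genes, were chosen by annotation alone, as those assigned to the KEGG orthology groups K01859 (chalcone isomerase) and K00475 (flavanone 3-hydroxylase). This gave 18 of 494326 unigenes, 9 for CHI and 9 for F3H, and no expression value was used to choose them.

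CHI closes the ring of naringenin chalcone, the product of chalcone synthase, to the flavanone naringenin. F3H, a 2-oxoglutarate-dependent dioxygenase, then hydroxylates naringenin to dihydrokaempferol, a dihydroflavonol that leads on to the anthocyanins and flavonols of petals. CHI-like (CHIL) proteins share the fold of CHI but lack its catalytic activity, and in other plants they are known to help chalcone synthase make the right product.

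RNA-Seq libraries were made from 63 flowers of 7 *Hyacinthus orientalis* cultivars, with 3 flowers for each cultivar and stage. The cultivars were 'Jan Bos' (red), 'Pink Pearl' (pink), 'Gipsy Queen' (orange), 'City of Haarlem' (yellow), 'China Pink' (pinkish white), 'Delft Blue' (blue) and 'Peter Stuyvesant' (dark purple), and the stages were green buds (Stage B), coloured buds (Stage C) and flowers at full anthesis (Stage A). Each flower gave one library of outer perianth lobes, one of inner perianth lobes and one of perianth tube, after its stamens and pistil had been taken out. All plants grew outdoors in a single season from imported bulbs that had been dipped in fungicide and kept cold. Collection dates of single groups are not given in the sources used here, and date and handling cannot be told apart from cultivar and stage. Nothing in the labels ties flowers to separate plants, so p-values measure the spread between flowers.

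Levels are given as FPKM, fragments scaled to the length of the unigene and to the library's total, averaged over the 3 partitions of a flower, and the replicate is the flower. Because the FPKM values are scaled to each library's total, levels scaled by TMM (trimmed mean of M values, a normalisation that assumes most unigenes do not change) are given where they differ. TMM factors lay between 1.11 and 1.58 at Stage B, with a median of 1.30, and between 0.788 and 0.915 at Stage A, with a median of 0.824, so the TMM scale lowers Stage B relative to Stage A. The median difference of all tested unigenes from Stage B to Stage C was -0.23 on the log2 scale with TMM and -0.64 without it, and from Stage C to Stage A it was -0.02 and -0.14. Total counts per library ran from 12602472 to 20175882. The chlorophyll a-b binding proteins, defining markers of green tissue (86 unigenes), had a median summed FPKM of 85309 in the outer lobes at Stage B and of 985.5 at Stage A. In 62 of 63 flowers the library labelled tube scored highest for unigenes that mark the tube. The exception was flower 3 of 'City of Haarlem' at Stage C, in which the library labelled outer lobes scored 0.803 and the library labelled tube -0.468, and partition results at that stage are given with and without it. Words for carpel and ovule regulators matched 0 unigenes. Those for stamen and pollen matched 52, with median summed FPKM between 720.9 and 1518 over stages and partitions and a highest value of 5593 in a Stage A tube. The words first chosen for perianth identity genes matched 1 unigene, below 1 FPKM. Unigenes matching the B-class floral MADS-box genes of rice (14 unigenes, a list added after the data were seen) were present in every partition at medians between 1294 and 2717 FPKM. In bulk tissue, fewer cells of a type and less RNA per cell cannot be told apart.

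Of the 9 CHI unigenes, 7 had a best Swiss-Prot match to a chalcone isomerase and 2 to the CHI-like protein CHIL2 of hop. Cluster-20417.239136 (1225 bp) had the highest mean, 1849 FPKM over all libraries, and was detected in each of them. It was followed by Cluster-20417.237989 (541 bp) at 1361 FPKM and Cluster-20417.239230 (312 bp) at 1329 FPKM, and these 3 unigenes carried 92.0% of the FPKM of the enzyme. The leading CHIL unigene, Cluster-20417.237158 (1309 bp), averaged 290.5 FPKM. Cluster-20417.227709, a CHI match of 564 bp, averaged 91.1 FPKM and the second CHIL unigene, Cluster-20417.232109 (940 bp), 13.9 FPKM. The remaining 3 CHI matches were close to the detection limit: Cluster-20417.211958 had 360 counts over all libraries, Cluster-20417.17011 had 8 and Cluster-20417.37067 had 7.

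Of the 9 F3H unigenes, 4 carried 99.7% of the FPKM of the enzyme. They were Cluster-20417.239532 (1179 bp, mean 2810 FPKM), Cluster-20417.242933 (546 bp, 1910 FPKM), Cluster-20417.254112 (379 bp, 1534 FPKM) and Cluster-20417.232006 (667 bp, 1118 FPKM), and the best non-redundant protein match of each was a putative F3H of grape hyacinth (*Muscari armeniacum*). Cluster-20417.232852 and Cluster-20417.233680 averaged 9.95 and 9.11 FPKM. Cluster-20417.254113, Cluster-20417.156697 and Cluster-20417.395482 each averaged below 1 FPKM, with 154, 514 and 31 counts in all.

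The unigenes are assembled fragments, and their reads may be split between alleles, isoforms or pieces of the same gene. The FPKM of a short unigene is raised by its small effective length: counts and FPKM together imply an effective length of 41.8 bp for Cluster-20417.239230, against 934 bp for Cluster-20417.239136. By counts, Cluster-20417.239136 held 70.2% of all CHI reads and Cluster-20417.239230 2.33%, while Cluster-20417.239532 held 69.9% of all F3H reads and Cluster-20417.254112 4.21%. The sum of FPKM over the unigenes of an enzyme is therefore given as a description without a test, and tests are given for single unigenes. A filter of at least 10 counts in at least 3 flowers left 202252 unigenes for testing, among them 7 of the CHI unigenes and 8 of the F3H unigenes.

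The first comparison asked how the enzymes differ between green and coloured buds. The summed F3H FPKM was low in green buds, 279.8 ± 285.4 (SD, n = 21 flowers), with a lowest value of 5.06, a median of 182.4 and a highest of 1184. In coloured buds it was 8403 ± 3488 FPKM (lowest 1241, median 9160, highest 17533), so every flower at Stage C stood above every flower at Stage B. The ratio of the stage means was 30.0 in FPKM and 40.0 on the TMM scale. The summed CHI FPKM went the other way, from 6816 ± 2949 at Stage B (lowest 2548, median 6762, highest 13108) to 4353 ± 2802 at Stage C (lowest 613.9, median 3580, highest 11319), and the flowers of the stages overlapped widely. The ratio of its means was 0.639 in FPKM and 0.851 on the TMM scale, or -0.65 and -0.23 in log2, so the size of the CHI difference depended on the scaling. The chlorophyll a-b binding sum of the outer lobes had medians of 85309 FPKM at Stage B and 3168 at Stage C, and the part of this loss of green tissue in either result was not tested.

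**Figure D1:**
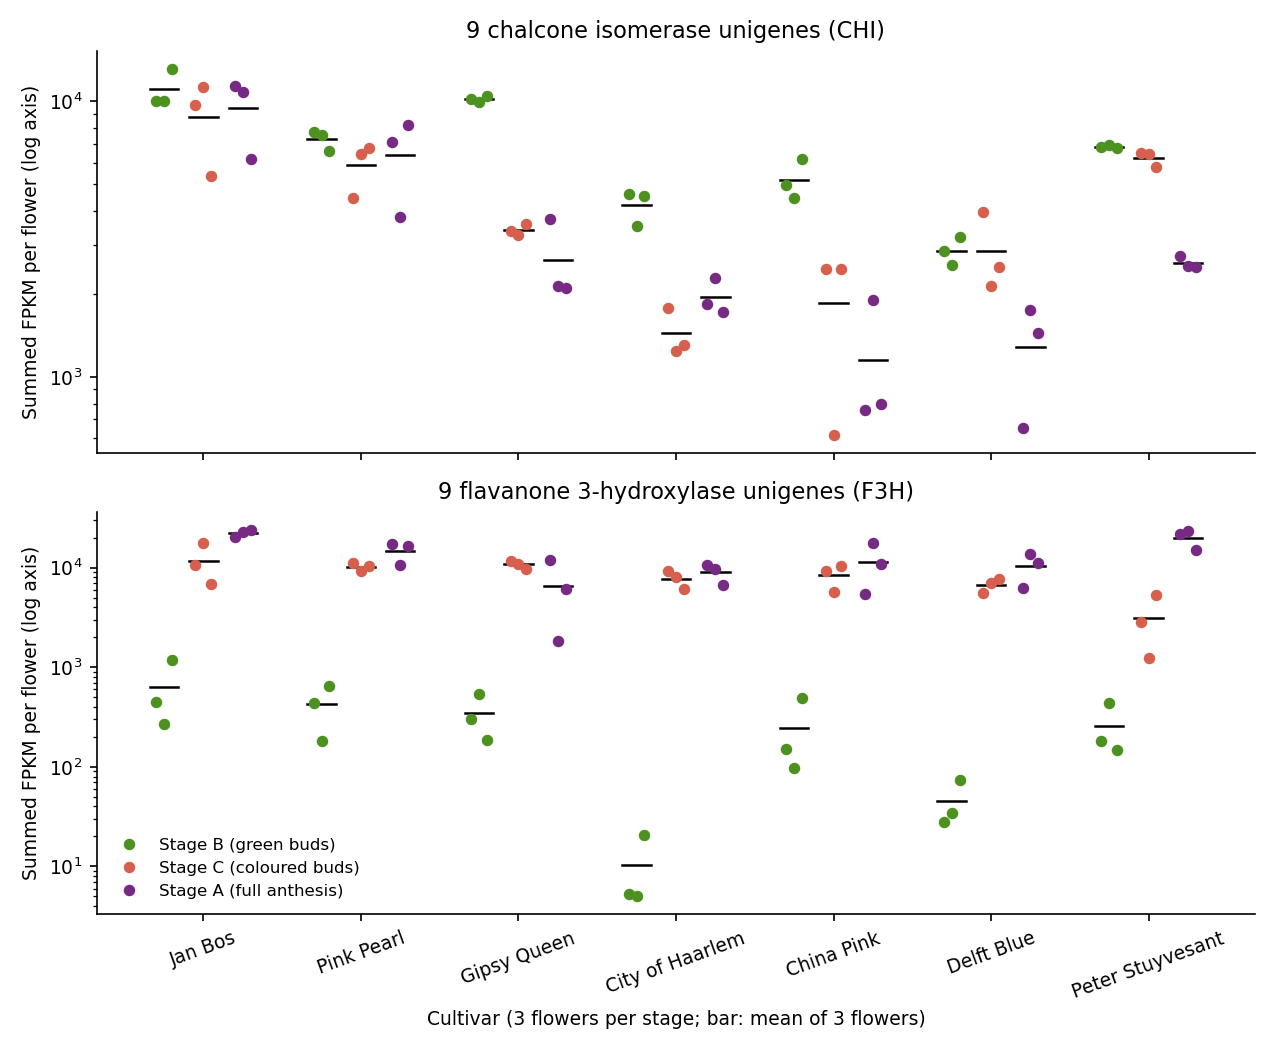
Summed FPKM of CHI (9 unigenes) and of F3H (9 unigenes) in each of the 63 flowers, by stage and cultivar, on a log10 axis (points are flowers, bars the mean of 3 flowers). Green buds lie between 2548 and 13108 FPKM for CHI and between 5.06 and 1184 FPKM for F3H, whereas coloured buds start at 1241 FPKM for F3H.

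By edgeR's quasi-likelihood test over the 63 flowers, averaged over the 7 cultivars, 6 of the 8 tested F3H unigenes rose from Stage B to Stage C (Benjamini-Hochberg adjusted p under 0.05 and absolute log2 fold change over 1), against 7.7% of all unigenes called higher. The leading F3H unigene Cluster-20417.239532 had a mean of 109.1 ± 108.6 FPKM at Stage B and of 3356 ± 1437 FPKM at Stage C (SD, n = 21), and rose by 6.15 ± 0.28 (log2, SE; adjusted p = 7.5e-25). Its companions rose by nearly the same amount, Cluster-20417.242933 by 6.06 ± 0.27, Cluster-20417.254112 by 6.46 ± 0.28 and Cluster-20417.232006 by 6.05 ± 0.26. The weakly expressed Cluster-20417.232852 and Cluster-20417.233680 rose from means of 1.35 and 1.13 FPKM to 15.7 and 14.5 FPKM, by 4.75 ± 0.33 and 4.73 ± 0.28. The median over the 8 tested F3H unigenes was 5.40, beside -0.23 over all unigenes tested.

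Among the 7 tested CHI unigenes 1 fell in the same comparison, against 14.8% of all unigenes called lower. In the other direction 0 rose, against 7.7% called higher, so both counts are close to the background. The one that fell was the CHIL unigene Cluster-20417.232109, singled out here after its values were seen. It went from 32.4 ± 22.5 FPKM at Stage B (lowest 5.80, median 21.3, highest 82.2) to 6.29 ± 11.1 FPKM at Stage C (lowest 0.647, median 1.85, highest 38.7), a change of -2.73 ± 0.14 (log2, SE; edgeR adjusted p = 2.7e-22). The 3 leading CHI unigenes had log2 differences of -0.18 ± 0.13 (Cluster-20417.239136, edgeR adjusted p = 0.34), -0.32 ± 0.13 (Cluster-20417.237989, 0.042) and -0.34 ± 0.18 (Cluster-20417.239230, 0.13), none of which passed both thresholds. The leading CHIL unigene Cluster-20417.237158 differed by -0.36 ± 0.11 (edgeR adjusted p = 0.0058), also short of the fold threshold. Cluster-20417.227709 stood on the other side, at 78.1 ± 35.3 FPKM in green buds and 104.7 ± 43.7 FPKM in coloured buds, with a log2 difference of 1.00 ± 0.14 that came just below the fold threshold and was called without the flowers numbered 2 (1.05) or those numbered 3 (1.06). Over the 7 CHI unigenes the median was -0.34. Without TMM the balance of calls over all unigenes moved from 15567 higher and 29876 lower to 8827 and 51973, while the counts of calls for both enzymes stayed the same.

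From coloured buds to anthesis, 0 unigenes of either enzyme were called when averaged over the cultivars, against 6.64% of all unigenes called higher and 4.38% lower by the same edgeR test. The 4 leading F3H unigenes had log2 differences between 0.76 ± 0.22 (Cluster-20417.239532, edgeR adjusted p = 0.0069) and 0.88 ± 0.21 (Cluster-20417.232006, 6.5e-04), each past the p threshold and short of the fold threshold. The summed F3H FPKM at Stage A was 13497 ± 6503 (SD, n = 21; lowest 1824, median 11862, highest 23951), 1.61 times the Stage C mean in FPKM and 1.75 times on the TMM scale, with overlapping flowers. The summed CHI FPKM was 3637 ± 3191 (lowest 650, median 2293, highest 11370), at a ratio of 0.835 in FPKM and 0.942 on the TMM scale. Its direction differed between cultivars, with FPKM ratios of 1.08 in 'Jan Bos', 1.08 in 'Pink Pearl' and 1.35 in 'City of Haarlem'. The ratio was 0.777 in 'Gipsy Queen', 0.622 in 'China Pink', 0.447 in 'Delft Blue' and 0.416 in 'Peter Stuyvesant'. Each cultivar kept its direction on the TMM scale. Flowers of the stages overlapped in all cultivars but 'Delft Blue' and 'Peter Stuyvesant'. The CHIL unigene Cluster-20417.237158 had a log2 difference of -0.33 ± 0.11 (edgeR adjusted p = 0.017), and the medians over the tested unigenes were -0.27 for CHI and 0.72 for F3H.

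The ratio of summed F3H to summed CHI in the same flower averaged 0.0352 in green buds (lowest 0.00116, highest 0.0985), 2.94 in coloured buds (0.193 to 9.30) and 5.45 at anthesis (0.853 to 13.7). It is a descriptive measure that a scaling factor common to the flower's 3 libraries does not alter, although separate factors per library could. No green bud reached the ratio of any coloured bud. At anthesis the cultivar means ran from 2.31 in 'Gipsy Queen', 2.42 in 'Pink Pearl' and 2.59 in 'Jan Bos' to 7.71 in 'Peter Stuyvesant', 8.40 in 'Delft Blue' and 10.1 in 'China Pink'. The lowest cultivars overlapped, with flowers from 0.853 to 3.18 (median 2.89) in 'Gipsy Queen', 2.01 to 2.81 in 'Pink Pearl' and 1.78 to 3.86 in 'Jan Bos'.

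Within single cultivars, 5 to 7 F3H unigenes rose from Stage B to Stage C in each of the 7 cultivars, against 8.37% of unigenes called higher over the same 7 comparisons. The size differed most at the green-bud end. In the 3 green-bud flowers of 'City of Haarlem' Cluster-20417.239532 read 2.38, 1.66 and 6.86 FPKM, and in 'Delft Blue' 9.71, 13.5 and 28.0 FPKM. In 'Jan Bos' it read 146.5, 94.3 and 393.9 FPKM, in 'Pink Pearl' 211.7, 83.1 and 311.1, and in 'Gipsy Queen' 132.5, 251.8 and 81.3. The green buds of 'City of Haarlem' lay below those of every other cultivar with no overlap, and those of 'Delft Blue' below all but 'City of Haarlem'. Their chlorophyll a-b binding sums were 49644 to 81950 FPKM in 'City of Haarlem' and 64581 to 97323 in 'Delft Blue', beside 38587 to 86682 in the other green buds. The part of green tissue or of bud age in these low F3H levels was not tested. In tests between pairs of cultivars at Stage B, Cluster-20417.239532 was lower in 'City of Haarlem' than in all 6 others and lower in 'Delft Blue' than in 5, and 12 of its 21 pairs were called, against 26.7% of all tests of pairs at that stage.

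In coloured buds 'City of Haarlem' read 3832, 3347 and 2542 FPKM for Cluster-20417.239532, within the range of the other cultivars. The step was 10.38 ± 0.88 in 'City of Haarlem' and 7.93 ± 0.80 in 'Delft Blue' (log2, SE), against 4.05 ± 0.67 in 'Peter Stuyvesant' and 4.47 ± 0.68 in 'Jan Bos'. The difference itself was tested as the step of a cultivar minus the mean step of the other 6. For Cluster-20417.239532 it was 4.93 ± 0.73 in 'City of Haarlem' (edgeR adjusted p = 2.2e-05), and for the other 3 leading F3H unigenes in that cultivar it lay between 4.21 ± 0.70 and 5.17 ± 1.00, of which that of Cluster-20417.254112 was not called without the flowers numbered 1 (4.65, adjusted p = 0.101). In 'Delft Blue' it was called for Cluster-20417.254112 (2.66 ± 0.77) and Cluster-20417.232006 (2.11 ± 0.63), and neither call held without the flowers of any number. Over the 7 cultivars and both steps 15 of these tests were called for F3H unigenes and 5 for CHI unigenes, against 1.32% of such tests over all unigenes, and these counts were 3, 5 and 12 for F3H and 2, 3 and 3 for CHI without the flowers numbered 1, 2 and 3.

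**Figure D2:**
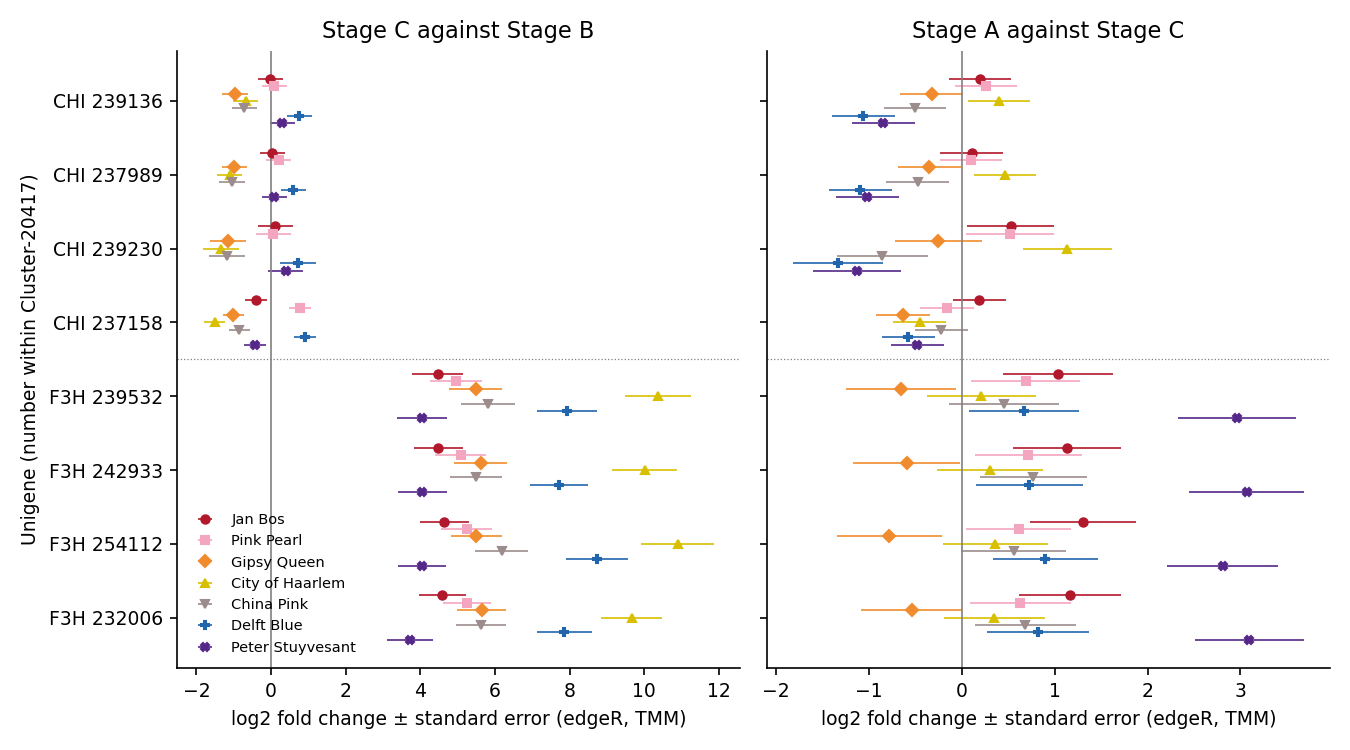
Log2 fold change (edgeR, with SE bars) of the leading unigenes from Stage B to C and from Stage C to A within each cultivar. The F3H step from B to C is largest in 'City of Haarlem' (10.38 for Cluster-20417.239532) and smallest in 'Peter Stuyvesant' (4.05), and 'Peter Stuyvesant' alone has a called F3H step from C to A (2.96).

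In 'Peter Stuyvesant' F3H unigenes were also called higher from coloured buds to anthesis. Its summed F3H read 180.2, 435.8 and 146.5 FPKM at Stage B, 2833, 1241 and 5294 FPKM at Stage C, and 21803, 23054 and 15170 FPKM at Stage A, with no overlap between stages. All 4 leading F3H unigenes rose from Stage C to Stage A, Cluster-20417.239532 by 2.96 ± 0.63 (log2, SE; edgeR adjusted p = 3.9e-04) and Cluster-20417.232006 by 3.10 ± 0.59 (7.7e-05), against 7.42% of all unigenes called higher in that cultivar. No F3H unigene was called for this step in any other cultivar, against 3.55% of unigenes called higher over the 7 cultivars. The summed F3H of 'Jan Bos' also did not overlap between these stages, at 10666, 17533 and 6831 FPKM in coloured buds and 20286, 22803 and 23951 at anthesis, a ratio of means of 1.91 in FPKM and 2.15 on the TMM scale. The test of the difference from the mean of the other 6 gave -2.45 ± 0.66 for Cluster-20417.239532 from B to C (edgeR adjusted p = 0.018) and 2.56 ± 0.66 from C to A (0.011). Leaving out the flowers numbered 1 or those numbered 2 ended these calls for all 4 leading unigenes, with values between -2.76 and -1.04 for the first step and between 1.79 and 2.57 for the second.

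The chlorophyll a-b binding proteins were also read in these flowers. Their summed FPKM in coloured buds of 'Peter Stuyvesant' was 16666, 25206 and 6132 in flowers 1 to 3, whereas the coloured buds of the other cultivars lay between 750.9 and 7158. Flower 2 of 'Peter Stuyvesant', with the highest of these values, had the lowest summed F3H of all coloured buds (1241 FPKM). Its flower 3, with the lowest value of the 3, had the highest summed F3H of the 3 (5294 FPKM). Flower 1 of 'Pink Pearl' (7158 FPKM) and flower 1 of 'Jan Bos' (7156) exceeded that flower in the chlorophyll a-b binding sum. Their summed F3H was 11104 and 10666 FPKM. In the pair tests at Stage C, which called 24.9% of all tests, Cluster-20417.239532 was lower in 'Peter Stuyvesant' than in 5 other cultivars and Cluster-20417.242933 than in all 6. At anthesis flower 2 of 'Gipsy Queen' combined the lowest summed F3H of the stage, 1824 FPKM beside 11862 and 6086 in the other flowers of that cultivar, with a chlorophyll a-b binding sum of 10633 FPKM beside 2826 and 1109. The part of green tissue or of bud age in these differences was not tested. Flower 2 of 'Pink Pearl' at anthesis had a comparable chlorophyll a-b binding sum, 10712 FPKM, with a summed F3H of 10698 FPKM.

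At anthesis the summed F3H of 'Jan Bos' (20286, 22803 and 23951 FPKM) and of 'Peter Stuyvesant' lay highest, and only 'Pink Pearl' (17246, 10698 and 16518) and 'China Pink' (5436, 17603 and 10948) had a flower above the 15170 FPKM of the lowest 'Peter Stuyvesant' flower. The leading unigene Cluster-20417.239532 was called in 0 of 21 pairs at Stage A, where its flowers read 6116, 7227 and 7510 FPKM in 'Jan Bos', 7345, 7871 and 4573 in 'Peter Stuyvesant' and 8051, 4804 and 7559 in 'Pink Pearl'. Cluster-20417.254112 separated the cultivars at the same stage, with 9 of 21 pairs called against 23.3% of all tests of pairs. It read 5757, 6387 and 6871 FPKM in 'Jan Bos' and 6193, 6752 and 4229 in 'Peter Stuyvesant', against 1871, 1320 and 2017 in 'Pink Pearl' and 1261, 1130 and 763 in 'City of Haarlem'. It was higher in 'Jan Bos' than in 5 other cultivars and higher in 'Peter Stuyvesant' than in 4. Its counts and FPKM imply an effective length of 94.8 bp, and it held 20.75% of the F3H FPKM but 4.21% of the reads. It therefore weighs more in the summed F3H FPKM of these cultivars than in their reads.

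The share of each unigene in the FPKM of its enzyme was taken over the 6 flowers of Stages C and A in each cultivar, as a description without a test. Cluster-20417.254112 made up 11.5 ± 0.28% of F3H in 'City of Haarlem' (SD, n = 6) and 11.9 ± 0.65% in 'Pink Pearl', but 27.2 ± 1.40% in 'Jan Bos' and 29.2 ± 1.23% in 'Peter Stuyvesant', so the spread between flowers was small beside the distance between these pairs of cultivars. Cluster-20417.242933 ranged from 17.8 ± 0.90% in 'Gipsy Queen' to 32.4 ± 0.76% in 'City of Haarlem'. Cluster-20417.239532 lay between 31.9 ± 1.02% in 'Jan Bos' and 45.7 ± 0.60% in 'Pink Pearl'. For CHI the widest range belonged to Cluster-20417.239230, from 10.4 ± 3.87% in 'China Pink' to 32.9 ± 4.52% in 'Jan Bos'. Whether a cultivar carries another allele, or its reads map differently to a shared assembly, was not tested.

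**Figure D3:**
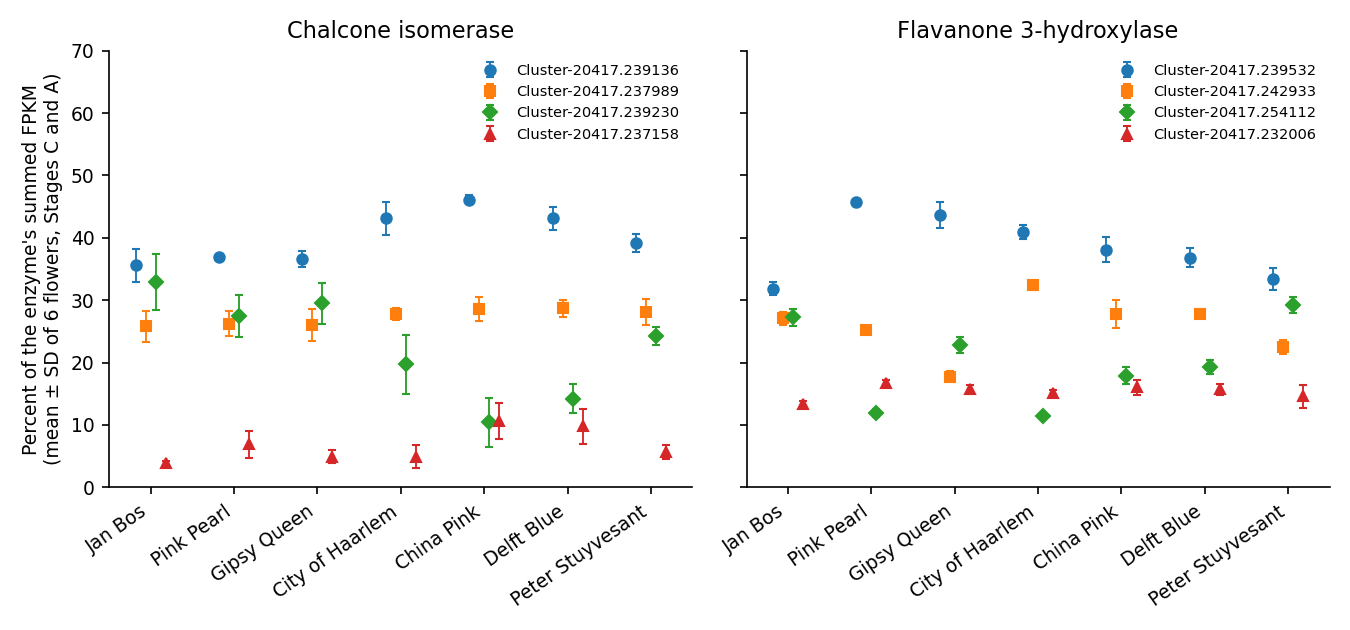
Percent of the enzyme's FPKM held by each leading unigene, mean and SD over the 6 flowers of Stages C and A in each cultivar. Cluster-20417.254112 holds 11.5% of F3H in 'City of Haarlem' and 29.2% in 'Peter Stuyvesant', and Cluster-20417.239230 holds 10.4% of CHI in 'China Pink' and 32.9% in 'Jan Bos'.

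Among the rare F3H unigenes, Cluster-20417.156697, whose best Swiss-Prot match is F3H2 of *Crocosmia*, was confined to particular cultivars in these libraries. It had 184 counts in 'Gipsy Queen', 190 in 'Jan Bos' and 140 in 'Pink Pearl', detected in at least 26 of 27 libraries of each, and 0 counts in all 27 libraries of each of the other 4 cultivars, which allows up to 3 counts per cultivar. Its mean level in the first 3 was 0.442, 0.452 and 0.333 FPKM. Cluster-20417.254113 had 104 of its 154 counts in 'Jan Bos', and too few in the other cultivars to compare their levels. Cluster-20417.233680 stayed low in the coloured buds of 'Gipsy Queen' at 2.75, 2.50 and 2.62 FPKM, whereas those of 'Jan Bos' read 26.8, 40.7 and 27.8. In the pair tests at Stage C 'Gipsy Queen', 'City of Haarlem' and 'Peter Stuyvesant' were each lower than 4 other cultivars, so the low level was not particular to 'Gipsy Queen'. The mean of this unigene over all libraries of a cultivar was 1.63 FPKM in 'Gipsy Queen' and 1.89 in 'City of Haarlem'. Its step from B to C in 'Gipsy Queen' differed from the mean of the other 6 by -2.93 ± 0.83 (edgeR adjusted p = 0.036), a call lost without the flowers of any number, although Cluster-20417.239532 reached 5132, 4913 and 4408 FPKM in the same flowers.

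For the leading CHI unigene Cluster-20417.239136, 'Jan Bos' was among the highest cultivars and 'Delft Blue' among the lowest at each end of the series. In green buds it read 3311, 3804 and 4867 FPKM in 'Jan Bos', 3168, 3781 and 3670 in 'Gipsy Queen' and 1119, 1124 and 1387 in 'Delft Blue'. At anthesis 'Jan Bos' read 3686, 3907 and 2225 FPKM and 'Pink Pearl' 2627, 1403 and 3031, and each of these cultivars was higher than 5 others in the pair tests, while 'China Pink' (345.7, 889.4 and 358.6) and 'Delft Blue' (259, 765.2 and 635.3) held the lowest flowers and overlapped each other. Its pairs of cultivars called numbered 7 of 21 in green buds, 9 in coloured buds and 10 at anthesis, beside the 26.7%, 24.9% and 23.3% of all tests of pairs given above, so the first count is close to the background. All 15 tested unigenes of the 2 enzymes passed the F test over the 7 cultivars (largest adjusted p = 8.67e-04), which 82.4% of all unigenes passed, so this is close to the background.

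From Stage B to Stage C the summed CHI of 'Gipsy Queen' went from 10195, 9991 and 10464 FPKM to 3398, 3280 and 3580, that of 'City of Haarlem' from 4609, 3516 and 4535 to 1774, 1246 and 1306, and that of 'China Pink' from 4959, 4458 and 6165 to 2461, 613.9 and 2467. These 3 cultivars had ratios of stage means between 0.335 and 0.356 in FPKM and between 0.478 and 0.551 on the TMM scale, with no overlap between stages. 'Jan Bos', 'Pink Pearl' and 'Delft Blue' overlapped between the stages, and the ratio of 'Delft Blue' was 0.998 in FPKM and 1.62 on the TMM scale. 'Peter Stuyvesant' went from 6839, 6928 and 6762 FPKM to 6491, 6419 and 5763, a ratio of 0.910 in FPKM and 1.13 on the TMM scale. At anthesis it read 2741, 2526 and 2506 FPKM, a ratio of 0.416 in FPKM and 0.535 on the TMM scale. In that cultivar Cluster-20417.237989 fell from C to A by 1.02 on the log2 scale (edgeR adjusted p = 0.026), the step at which F3H rose, against 8.41% of all unigenes called lower. In 'Delft Blue' Cluster-20417.239136 fell by 1.06 (SE 0.34, edgeR adjusted p = 0.031) and Cluster-20417.237989 by 1.10 (0.026) at the same step, against 4.73% of all unigenes called lower there.

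The CHIL unigenes had patterns of their own. Cluster-20417.237158 was lowest in the green buds of 'Delft Blue', at 197, 146.9 and 226.5 FPKM, whereas the other cultivars lay between 312.8 and 606 FPKM. In 'City of Haarlem' it fell from 386.5, 312.8 and 486.7 FPKM to 116.1, 88.9 and 76.9 (log2 -1.51 ± 0.29, edgeR adjusted p = 7.2e-05), and in 'Gipsy Queen' from 544.3, 469.1 and 599.8 to 156.2, 157.4 and 245.2 (-1.01 ± 0.29, 0.0076). In 'Pink Pearl' its coloured buds, at 498.7, 402.8 and 445.8 FPKM, stood above its green buds at 357, 353.5 and 367.5, without passing the fold threshold (0.78, edgeR adjusted p = 0.044). Against the mean of the other 6 cultivars the step was 1.49 ± 0.32 in 'Delft Blue' (edgeR adjusted p = 0.0028), 1.33 ± 0.31 in 'Pink Pearl' (0.022) and -1.35 ± 0.31 in 'City of Haarlem' (0.010). The last was not called without the flowers numbered 1 (adjusted p = 0.153) or those numbered 3 (0.249). That in 'Delft Blue' was not called without the flowers numbered 1 (0.107), and that in 'Pink Pearl' was not called without the flowers of any number.

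The second CHIL unigene, Cluster-20417.232109, fell from Stage B to Stage C in all 7 cultivars, from -1.02 ± 0.34 in 'Peter Stuyvesant' (edgeR adjusted p = 0.038) to -3.94 ± 0.40 in 'China Pink', against 10.7% of unigenes called lower over the 7 comparisons. In 'Peter Stuyvesant' it read 69.1, 82.2 and 80.3 FPKM in green buds, 38.7, 36.7 and 18.2 in coloured buds and 9.36, 8.46 and 7.59 at anthesis. No coloured bud of another cultivar exceeded 6.42 FPKM, and at Stage C the unigene was higher in 'Peter Stuyvesant' than in all 6 others. Its step there was 2.00 ± 0.38 above the mean of the other 6 (edgeR adjusted p = 4.4e-04), and the next step 1.65 below it (SE 0.38, 0.0045), a call that did not hold without the flowers numbered 2 (adjusted p = 0.195). The coloured buds of this cultivar are those with the high chlorophyll a-b binding sums given above, and their part in this result was not tested. The CHI match Cluster-20417.227709 rose from Stage B to C in 'Delft Blue' (38.7, 31.3 and 39.0 to 134.1, 68.0 and 75.7 FPKM, log2 2.08 ± 0.38), 'Pink Pearl' (1.33 ± 0.37) and 'City of Haarlem' (1.11 ± 0.38).

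Perianth partitions were compared within each stage over 63 libraries. The summed F3H at anthesis averaged 16777 FPKM in outer lobes, 16775 in inner lobes and 6938 in tube, and the tube was below the mean of the lobes in 21 of 21 flowers, with a median ratio of 0.405 (lowest 0.253, highest 0.601). The summed CHI at anthesis averaged 4291, 4547 and 2072 FPKM, with the tube below the lobes in 21 of 21 flowers at a median ratio of 0.541 (0.314 to 0.719).

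**Figure D4:**
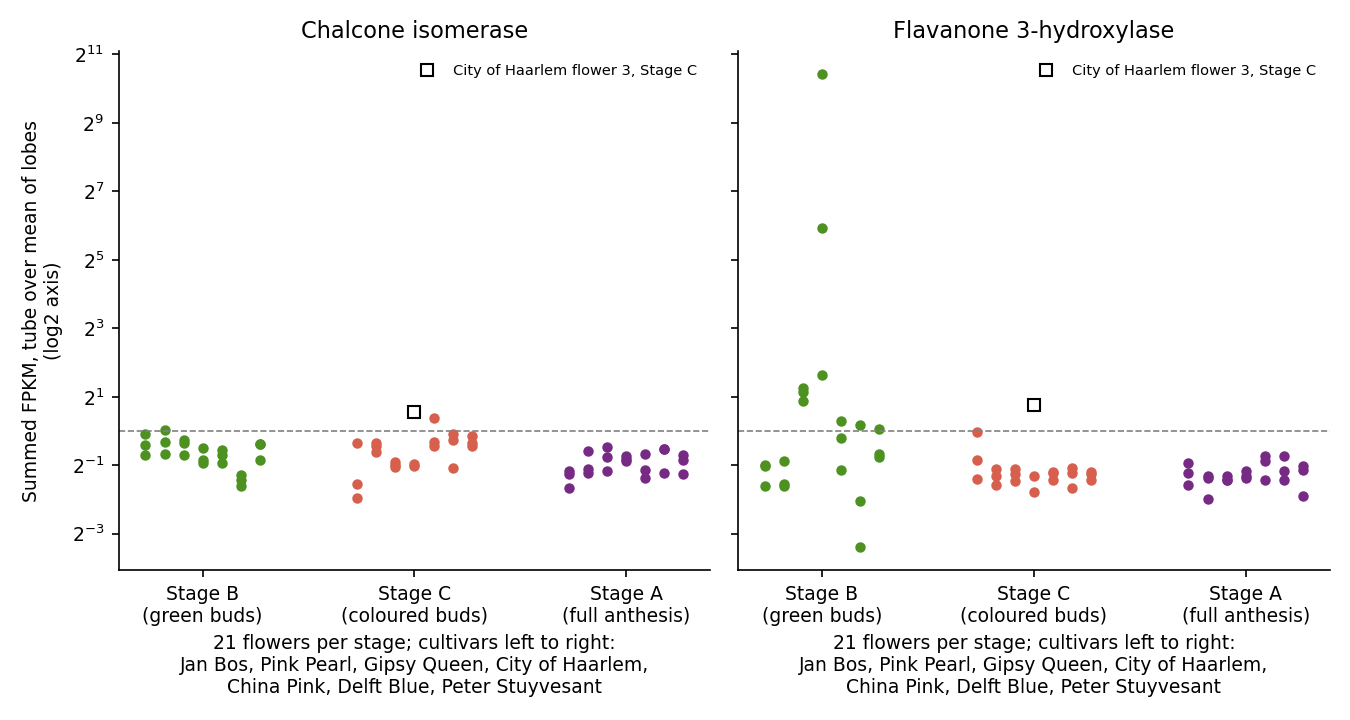
Ratio of the tube to the mean of outer and inner lobes in summed FPKM for each flower, by stage and enzyme, on a log2 axis with a line at equal levels and the 7 cultivars in order from left to right. At Stage A every flower lies below the line for both enzymes, at medians of 0.405 for F3H and 0.541 for CHI, and the square marks flower 3 of 'City of Haarlem' at Stage C.

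At anthesis 4 of 7 tested F3H unigenes were lower in tube than in lobes, against 2.18% of all unigenes called lower. They were the 4 leading ones, between -1.44 ± 0.18 (Cluster-20417.232006) and -1.54 ± 0.19 (Cluster-20417.239532, edgeR adjusted p = 1.7e-08). For CHI 4 of 7 were lower, Cluster-20417.239136 by -1.23 ± 0.15 (edgeR adjusted p = 1.4e-08), Cluster-20417.237989 by -1.12 ± 0.16, Cluster-20417.239230 by -1.36 ± 0.20 and Cluster-20417.227709 by -1.10 ± 0.15. Scaling by library totals alone left 1 of these 4 CHI calls, that of Cluster-20417.239230. Cluster-20417.239136 came to -0.997 and Cluster-20417.237989 to -0.894, each short of the fold threshold, and the call of Cluster-20417.227709 was lost as well. Neither CHIL unigene was called, and the tube of Cluster-20417.237158 had a median ratio of 0.895 to the lobes. The chlorophyll a-b binding sum at anthesis had medians of 985.5 FPKM in outer lobes, 1003 in inner lobes and 1909 in tube (highest 29097), and the stamen and pollen unigenes of 775.3, 720.9 and 1291 FPKM. The part of either in the difference between tube and lobes was not tested.

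In coloured buds the same 4 F3H unigenes of 8 tested were lower in tube, between -1.27 ± 0.19 (Cluster-20417.242933) and -1.45 ± 0.21 (Cluster-20417.254112), against 1.39% of all unigenes called lower. The summed F3H averaged 10925 FPKM in outer lobes, 9609 in inner lobes and 4674 in tube, and the tube was below the lobes in 20 of 21 flowers. The exception was flower 3 of 'City of Haarlem', whose libraries labelled outer, inner and tube read 2524, 7302 and 8333 FPKM. Without it the tube was below the lobes in 20 of 20 flowers at a median ratio of 0.420, and 5 F3H unigenes were called lower. Of the CHI unigenes 1 of 6 tested was lower in tube, Cluster-20417.227709 (-1.19 ± 0.17, edgeR adjusted p = 4.3e-07), and this count was 0 without the flowers numbered 1 and 2 without those numbered 3. The summed CHI of the tube was nevertheless below that of the lobes in 19 of 21 flowers, at a median ratio of 0.740. At this stage too the tube had the highest median for chlorophyll a-b binding proteins (5572 FPKM, beside 3168 in outer and 2698 in inner lobes) and for stamen and pollen unigenes (1518, beside 1025 and 1232), and their part was not tested.

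In green buds no unigene of either enzyme was called between tube and lobes, against 1.28% of all unigenes called lower. The CHI unigenes nevertheless lay on one side, Cluster-20417.239136 at -0.71 ± 0.07 (edgeR adjusted p = 4.5e-12) and Cluster-20417.237158 at -0.83 ± 0.08 (1.9e-11), and the summed CHI of the tube was below that of the lobes in 20 of 21 flowers at a median ratio of 0.633. The summed F3H of the tube was below that of the lobes in 12 of 21 green buds. In 'City of Haarlem' the green-bud tubes read 9.78 to 61.6 FPKM, whereas its outer lobes read 0.08 to 0.39 and its inner lobes 0 to 6.17. In 'Gipsy Queen' the tube averaged 520.7 ± 238.1 FPKM, the outer lobes 265.1 ± 164.4 and the inner lobes 249 ± 158 (SD, n = 3). The chlorophyll a-b binding sum differed between the partitions at this stage, with medians of 85309 FPKM in outer lobes, 77003 in inner lobes and 33347 in tube, and its part in the CHI difference was not tested.

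Outer and inner lobes were not called different for any CHI or F3H unigene at any stage, where 0.143% of unigenes were called in green buds, 0.00353% in coloured buds and 0.000887% at anthesis. The summed F3H was higher in outer than in inner lobes in 13 of 21 green buds, 18 of 21 coloured buds, at a median ratio of 1.13, and in 9 of 21 flowers at anthesis (0.957). The summed CHI was higher in outer lobes in 16 of 21 green buds (1.07), 14 of 21 coloured buds and 7 of 21 flowers at anthesis (0.854). These counts are a description without a test, and those for coloured buds include flower 3 of 'City of Haarlem'.

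The neighbouring steps of the pathway place the enzymes. Chalcone synthase, the enzyme before CHI, summed to 9276 FPKM in green buds, 3698 in coloured buds and 3947 at anthesis, with 4 of 21 tested unigenes higher and 7 lower from B to C by the same edgeR test, where 7.7% of all unigenes were called higher and 14.8% lower. In FPKM the enzymes after F3H were highest in coloured buds. Dihydroflavonol reductase, which reduces dihydroflavonols to leucoanthocyanidins, went from 308.4 to 1856 and 1007 FPKM with 5 of 19 unigenes higher and 0 lower from B to C, and anthocyanidin synthase, which oxidises leucoanthocyanidins, from 573.9 to 4225 and 3835 with 3 of 6 higher. Anthocyanidin 3-O-glucosyltransferase, which stabilises anthocyanidins with a sugar, went from 1846 to 7927 and 4326 with 9 of 17 higher and 1 lower. Flavonoid 3'-hydroxylase went from 415.7 to 2262 and 1960 with 3 of 42 higher and 12 lower. Its share called higher was close to the background, and more of its unigenes were called lower than higher although its sum rose. Upstream, 4-coumarate-CoA ligase went from 297.6 to 3087 and 5626 FPKM (12 of 41 higher, 3 lower), phenylalanine ammonia-lyase from 2221 to 2515 and 4559 (1 of 27 higher, 2 lower) and cinnamate 4-hydroxylase from 339.9 to 181.5 and 275.7 (2 of 20 higher, 3 lower). On the TMM scale cinnamate 4-hydroxylase read 267, 194.6 and 331.1 at the 3 stages, so its highest stage depended on the scaling, and its shares of calls were close to the background. The shares of phenylalanine ammonia-lyase from B to C did not exceed the background in either direction. The groups for flavonoid 3',5'-hydroxylase and flavonol synthase matched 0 unigenes.

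**Figure D5:**
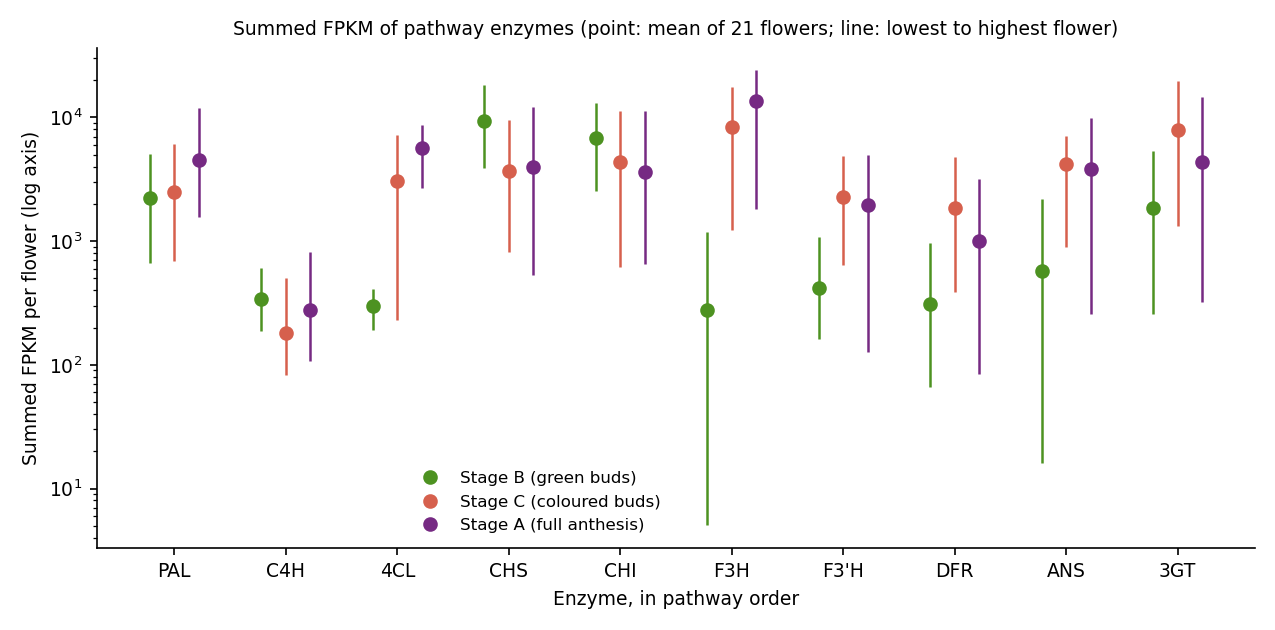
Summed FPKM of each enzyme of the pathway at Stages B, C and A, as the mean of 21 flowers (point) with a line from the lowest to the highest flower, on a log10 axis and in pathway order. By the mean of 21 flowers CHI, like chalcone synthase, is highest in green buds (6816 and 9276 FPKM), although flowers of the stages overlap for both. The mean of F3H goes from 279.8 to 8403 and 13497 FPKM.

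From C to A, 6.64% of all unigenes were called higher and 4.38% lower. Of 41 tested 4-coumarate-CoA ligase unigenes 12 were higher and 1 lower, and of 27 for phenylalanine ammonia-lyase 6 and 0. Of 20 for cinnamate 4-hydroxylase 2 were higher and 1 lower, and of 17 for the glucosyltransferase 0 and 5. Of 19 for dihydroflavonol reductase 0 were higher and 2 lower, and of 21 for chalcone synthase 1 and 0. Flavonoid 3'-hydroxylase had 0 calls among 42. F3H, 4-coumarate-CoA ligase and phenylalanine ammonia-lyase were highest in FPKM at anthesis. Dihydroflavonol reductase, anthocyanidin synthase, the glucosyltransferase and flavonoid 3'-hydroxylase were highest in FPKM in coloured buds. The means of anthocyanidin synthase at these stages were 4651 and 4611 on the TMM scale, and 0 of its 6 unigenes were called from C to A. Between tube and lobes at anthesis 7 of 18 tested chalcone synthase unigenes were lower and 1 was higher. Of cinnamate 4-hydroxylase 6 of 12 were lower, where 2.18% of all unigenes were called lower and 5816 of 112719 higher. Lower calls numbered 2 of 22 for phenylalanine ammonia-lyase and 2 of 28 each for 4-coumarate-CoA ligase and flavonoid 3'-hydroxylase. They numbered 1 of 5 for anthocyanidin synthase and 1 of 17 for the glucosyltransferase. Dihydroflavonol reductase had 0 calls among 13 tested, close to the background.

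The unigenes most like each leading unigene were ranked by Pearson's r of log2(FPKM + 1) over the 63 flowers, among 78860 unigenes with a mean of at least 1 FPKM. The flowers share cultivars, stages and library scaling, so r is a description. For the CHI unigene Cluster-20417.239136 they were its companions Cluster-20417.237989 (0.991) and Cluster-20417.239230 (0.954), the chalcone synthases Cluster-20417.238528 (0.944) and Cluster-20417.238952 (0.934), and Cluster-20417.237587 (0.941), which has no annotation. The CHIL unigene Cluster-20417.237158 ranked 15 (0.877). For the F3H unigene Cluster-20417.239532 they were Cluster-20417.232006 (0.997), Cluster-20417.242933 (0.992) and Cluster-20417.254112 (0.980), followed by Cluster-20417.249170 (0.952), annotated as an ABC1-like kinase, and Cluster-20417.230660 (0.941), annotated as strictosidine synthase-like. Between the leading CHI and the leading F3H unigene r was -0.257.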

How the data were processed

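All poly-A libraries of the 63 flowers, sequenced as Illumina read pairs, were used. The authors built one assembly from them with Trinity and CORSET, in which the longest member of a cluster stands for the unigene. They mapped reads to these unigenes with Bowtie and counted them with RSEM, whose versions are not given in the sources used here. The deposited values are expected counts per unigene and library, without normalisation, and the authors converted them to FPKM. Since all cultivars were mapped to one assembly, reads of alleles that differ from the kept transcript may map less well.

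Members and lists were chosen with earlier results of these data known, although no expression value entered the choice of members. The members are all unigenes of K01859 and K00475. Values per flower were given for unigenes that averaged 1 FPKM or more, in the order of their means and for at most 4 per enzyme, and other unigenes were described by counts and ranges unless singled out after their values were seen. The pathway list was 10 other KEGG orthology groups, and cell type markers were found by words in the Swiss-Prot description.

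The expected counts were rounded and then summed over the 3 partitions of a flower. Tests covered unigenes that reached 10 counts in 3 or more flowers (for partitions, 3 libraries). They were run with edgeR 4.0.16 (TMM and the quasi-likelihood test, R 4.3.3), in one fit of 21 groups of cultivar and stage, and for partitions in one fit per stage of 21 groups of cultivar and partition. Calls required a Benjamini-Hochberg adjusted p under 0.05 over all unigenes tested and an absolute log2 fold change over 1, and the SE of a fold change was taken from its F statistic. Levels, ratios and likeness were computed in Python 3.11.15 with numpy 2.4.6 and pandas 2.3.3, and figures with matplotlib 3.10.9. The fits were tested on simulated data.

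The labels give only a replicate number, and the paper describes cutting single flowers into the 3 partitions. Partitions of the same number were therefore taken as parts of the same flower. Their deviations from the group means had median r values of 0.50, 0.50 and 0.53 in green buds, coloured buds and anthesis, and r was above 0.1 in 63, 61 and 62 of 63 pairs. The alternatives were DESeq2 1.42.0, its size factors in edgeR, limma-trend (limma 3.58.1), other filters on low counts, blocks, and leaving out each replicate. Those chosen after seeing the data were no TMM, TMM-scaled FPKM, leaving out flower 3 of 'City of Haarlem' at Stage C, and the rice MADS-box words.

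Total counts per library had a median of 13822438, and limits for a count of 0 cover counting error only.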

Additional observations from a re-analysis of the deposited data

Results flagged for a closer look

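The step of a cultivar from one stage to the next differed from the mean step of the other 6 cultivars, by a test of the difference itself, for the following unigenes (edgeR's quasi-likelihood test, log2, Benjamini-Hochberg adjusted p over all unigenes). From green to coloured buds in 'City of Haarlem' the difference was 5.17 for the F3H unigene Cluster-20417.254112, 4.93 for Cluster-20417.239532, 4.60 for Cluster-20417.242933 and 4.21 for Cluster-20417.232006, and in 'Delft Blue' it was 2.66 for Cluster-20417.254112 and 2.11 for Cluster-20417.232006. In 'Peter Stuyvesant' it was -2.82 for Cluster-20417.254112, -2.72 for Cluster-20417.232006, -2.45 for Cluster-20417.239532 and -2.34 for Cluster-20417.242933. From coloured buds to anthesis the same cultivar gave 2.58 for Cluster-20417.232006, 2.56 for each of Cluster-20417.239532 and Cluster-20417.242933, and 2.32 for Cluster-20417.254112. The weakly expressed F3H unigene Cluster-20417.233680 differed by -2.93 in 'Gipsy Queen' from green to coloured buds.

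For CHI-like unigenes the difference from green to coloured buds was 1.49 in 'Delft Blue', 1.33 in 'Pink Pearl' and -1.35 in 'City of Haarlem' for Cluster-20417.237158. For Cluster-20417.232109 in 'Peter Stuyvesant' it was 2.00 from green to coloured buds and -1.65 from coloured buds to anthesis.

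Leaving out the flowers numbered 1 or those numbered 2 ended the calls of the 4 leading F3H unigenes in 'Peter Stuyvesant' for both steps, with values between -2.76 and -1.04 for the first step and between 1.79 and 2.57 for the second. The F3H differences in 'Delft Blue', that of Cluster-20417.233680 in 'Gipsy Queen' and that of Cluster-20417.237158 in 'Pink Pearl' were not called without the flowers of any number. That of Cluster-20417.254112 in 'City of Haarlem' (4.65) and that of Cluster-20417.237158 in 'Delft Blue' (1.44) were not called without the flowers numbered 1, that of Cluster-20417.237158 in 'City of Haarlem' without those numbered 1 or 3, and the second of Cluster-20417.232109 (-1.33) without those numbered 2.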

How the results depend on the processing

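Over the alternatives, 151 of the values that answer a comparison stayed near the main value by the rule used and 11 moved. For counts of calls this rule allowed a moderate change, so that 38 F3H calls over the pairs at Stage A, beside 56 with all flowers, were taken as near. No called value changed sign. Values close to 0 that were not called did, such as that of Cluster-20417.232109 from C to A (-0.08, range -0.28 to 0.09). From Stage B to Stage C, 6 F3H unigenes were called higher under every edgeR and limma-trend alternative (7 by DESeq2) and 1 CHI unigene was called lower under every alternative. The count of CHI unigenes called higher ranged from 0 to 1 when each replicate number was left out, with Cluster-20417.227709 called at 1.05 and 1.06 (log2) without replicates 2 and 3. CHI calls lower in tube ranged from 0 to 2 at Stage C and stayed at 4 at Stage A over the same omissions, and fell to 1 at Stage A without TMM, an alternative chosen after seeing the data. Calls of F3H unigenes over the 21 pairs of cultivars at Stage C numbered 59 and ranged from 31 to 58 (31 without replicate 1), where fewer flowers were tested. The corresponding ranges were 56 to 83 at Stage B (79 with all flowers) and 38 to 44 at Stage A (56) for F3H, and 41 to 46 (54), 49 to 50 (58) and 54 to 82 (73) at Stages B, C and A for CHI. Tests of the difference of steps were called 15 times for F3H by edgeR, 20 by DESeq2 and 21 by limma-trend, and 5, 7 and 6 times for CHI. Leaving out each replicate number, they were called 3 to 12 times for F3H (3 without replicate 1, 5 without replicate 2) and 2 to 3 times for CHI, where fewer flowers were tested. Other filters, DESeq2 size factors and the block were not run for these differences. The log2 ratio of stage means for F3H from B to C ran from 4.75 to 5.27 when a replicate was left out. With pseudocount 0.1, the fifth unigene most like the leading F3H unigene became Cluster-20417.299826 (r = 0.938).

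Of the values of single unigenes, 609 stayed on their side, 35 lost a call and 3 gained one. The flower as a block in the partition fits, where numbers pair the samples, changed the call of 0 of 84 tests, with 4 F3H and 1 CHI unigenes lower in tube at Stage C, and 4 and 4 at Stage A. Flowers of different stages share only a number (median r 0.03 and lowest -0.43 for flowers of the same number and cultivar), and the replicate number as a block changed the call of 2 of 360 tests and left 6 F3H unigenes higher and 1 CHI unigene lower from B to C. The planned fit with single libraries as replicates was not run. With 3 flowers per group, a step within a cultivar had an SE near 0.7 for the leading F3H unigene, which limits the difference between cultivars that these data can show.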
